A study of Mus musculus with 2 samples.

Results

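Fgf15, Slc51a and Clec2h, genes typical of enterocytes of the distal small intestine, were taken by their symbols from the RNA sequencing of small intestinal organoids and make up 3 of the 1448 listed genes. All 3 had more reads in the AdipKO library than in the WT library. The AdipKO organoids (Adipfl/flpVilli-CreT) came from mice with a floxed adiponectin gene and a Cre under the villin promoter, a promoter of the gut epithelium, and the WT organoids (Adipfl/fl) were from Cre-free mice that carried the floxed gene as well. What the T in CreT stands for is not stated, so whether this Cre needs an inducer is not known here. Both were grown from crypts in Matrigel in a medium with Noggin, R-spondin and epidermal growth factor, and the labels name no bile acid among the additions. There was 1 library per genotype, so the differences are between 2 libraries, without replicates and without p-values. The sources used here do not give the number, age or sex of the mice behind each library, nor the segment of small intestine.

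The ileum is where conjugated bile acids are taken back from the gut lumen. Bile acids that enter an ileal enterocyte bind the nuclear receptor FXR, encoded by Nr1h4. FXR then raises transcription of Fgf15, a hormone that travels to the liver and lowers bile acid synthesis there through the receptor FGFR4 and its co-receptor beta-Klotho. FXR also raises Slc51a and Slc51b, whose proteins pair to export bile acids from the enterocyte into the blood. Clec2h belongs to a different family, the C-type lectin-like CLEC2 proteins, some of which are ligands of NKR-P1 receptors on lymphocytes, and its transcript is abundant in intestinal epithelium.

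The values are unscaled estimates of the reads per gene. The log2 count ratios left a gap from -1.04 to 0.96 with no gene in it, which makes the listed genes a selection by size of difference, and genes outside it were not analysed here. The sums over listed genes, 689004.63 reads in AdipKO and 802994.76 reads in WT, are therefore not depths. Adipoq, the deleted gene, was not among the listed genes, so the genotypes rest on the labels, and no value in the tables checks them. The paper reports higher expression of Lgr5, Ascl2, Olfm4, Lyz1, Mycl and Tnfrsf19 in the knockout organoids, by RNA sequencing and by qRT-PCR. By these labels each of those genes had fewer reads in the AdipKO library, as Lgr5 with 3127 reads in AdipKO and 7858 in WT. The paper also reports more Lgr5-positive and more proliferating cells in knockout organoids by immunostaining. Which direction is right cannot be told from these counts. If the labels were exchanged, every direction given here would turn round. Intervals are exact 95% intervals and are for counting error alone, so they do not hold the spread among cultures or mice. In RNA of whole organoids, more cells of a type and more RNA per cell cannot be told apart.

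Fgf15 (NCBI gene 14170) had 73 reads in the AdipKO library (95% interval 57.2 to 91.8) and 9 reads in the WT library (4.12 to 17.1). The count was 8.11-fold higher in AdipKO organoids (4.05 to 18.4), a log2 ratio of 2.89 with a pseudocount of 1. The width of the interval of the fold follows from the 9 WT reads. Fgf15 lies on the plus strand of chromosome 7 from 144896532 to 144900953 (mm10), and its longest protein-coding transcript has 3 exons.

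Slc51a (NCBI gene 106407) encodes the alpha subunit of the bile acid exporter. It had 28 reads in the AdipKO library (18.6 to 40.5) and 8 reads in the WT library (3.45 to 15.8). The count was 3.50-fold higher (1.55 to 8.89), with a log2 ratio of 1.69. It was the least counted of the 3 genes, and its fold had the lower limit nearest to 1. Slc51a lies on the minus strand of chromosome 16 from 32475578 to 32487879 and has 9 exons in its longest protein-coding transcript.

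The 250 bases before the start of Slc51a are shown because it is an FXR target, from chr16:32487880-32488129 on the minus strand (RefSeq, GRCm38.p6, 5' to 3' on the strand of the gene). Capitals mark CACGTG, the E-box, and AGGTCA, the half-site of nuclear receptors, here read on the other strand.
Slc51a: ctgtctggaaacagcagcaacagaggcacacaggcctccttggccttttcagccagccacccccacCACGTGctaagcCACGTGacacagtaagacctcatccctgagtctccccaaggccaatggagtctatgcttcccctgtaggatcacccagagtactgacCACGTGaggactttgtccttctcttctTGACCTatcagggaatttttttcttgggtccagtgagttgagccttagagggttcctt

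Searched on both strands, CACGTG stood at -184, -172 and -85, counted from the annotated start, and 3 or more copies occur in 0.0609% of all windows of this length in the RefSeq table. This motif was chosen after the sequence had been seen. The half-site at -58 occurs in 14.0% of windows. AGGTCANTGACCT, the inverted repeat of that half-site with a spacer of 1 base to which FXR binds with its partner RXR, had no match in the windows of Slc51a, Clec2h or Clec2e, also with up to 2 mismatches. It is in 0.00609% of all windows, or 0.959% with up to 2 mismatches, and its absence says only that these letters are not in these windows. AGATAA, the GATA site, and TGATGNAA, the C/EBP-ATF composite site, had no match in these windows either and occur in 9.99% and 3.45% of all windows.

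Clec2h (NCBI gene 94071), which encodes a C-type lectin-like membrane protein, had 284 reads in the AdipKO library (251.9 to 319.03) and 36 reads in the WT library (25.2 to 49.8). The count was 7.89-fold higher (5.56 to 11.5), with a log2 ratio of 2.95. Its fold was the most precisely counted of the 3. Clec2h lies on the plus strand of chromosome 6 from 128662385 to 128677374, with 5 exons.

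The 250 bases before the start of Clec2h and of its paralogue Clec2e, which was also higher in AdipKO, are shown because they are nearly the same (RefSeq, GRCm38.p6). Clec2h is taken from chr6:128662135-128662384 on the plus strand and Clec2e from chr6:129100904-129101153 on the minus strand. Capitals mark TTTAT, the core bound by CDX factors, TAAAGTCC, which is close to an element bound by HNF4 receptors, TGANTCA, an AP-1 type site, and TATAAA.
Clec2h: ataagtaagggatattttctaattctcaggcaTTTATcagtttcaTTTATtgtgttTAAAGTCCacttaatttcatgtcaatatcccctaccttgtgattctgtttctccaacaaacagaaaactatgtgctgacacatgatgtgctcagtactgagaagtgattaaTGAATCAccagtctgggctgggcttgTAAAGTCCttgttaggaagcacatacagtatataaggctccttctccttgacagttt
Clec2e: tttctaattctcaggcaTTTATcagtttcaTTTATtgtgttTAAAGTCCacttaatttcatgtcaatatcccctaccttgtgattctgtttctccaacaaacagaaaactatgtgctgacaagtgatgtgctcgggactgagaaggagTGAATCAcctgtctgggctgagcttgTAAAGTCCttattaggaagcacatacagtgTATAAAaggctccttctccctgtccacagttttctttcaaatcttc

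In a global alignment 220 of 231 aligned bases of these windows were identical (95.2%), which is 88.0% of the window. Against 32850 other windows in the RefSeq table, this was the only one over 60%, and the median was 48.4%. Clec2d, Clec2g and Clec2i, which were not listed, had 52.8%, 52.4% and 50.0%. Clec2h held TTTAT at -218 and -205, TAAAGTCC at -194 and -57 and TGANTCA at -83. Clec2e held the same motifs in the same order, with TTTAT at -233 and -220, TAAAGTCC at -209 and -76 and TGANTCA at -102, and in addition TATAAA at -46, which overlaps a further TTTAT on the other strand at -45. TTTAT occurs in 37.3% of all windows and 2 or more times in 14.3%. TGANTCA occurs in 6.75%, TATAAA in 12.4%, and TAAAGTCC, which was chosen after the sequences had been seen, in 0.67%. A match of letters is a description and does not show that a factor was bound.

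**Figure D1:**
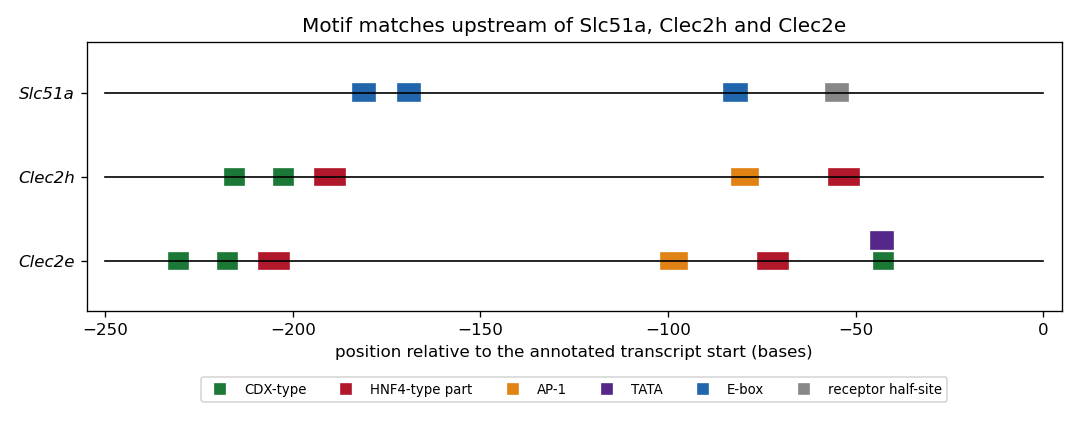
Positions of motif matches in the 250 bases before the annotated starts of Slc51a, Clec2h and Clec2e, in bases from the start. Clec2h and Clec2e hold TTTAT, TAAAGTCC and TGANTCA in the same order, and Slc51a holds 3 E-boxes and 1 receptor half-site.

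**Figure D2:**
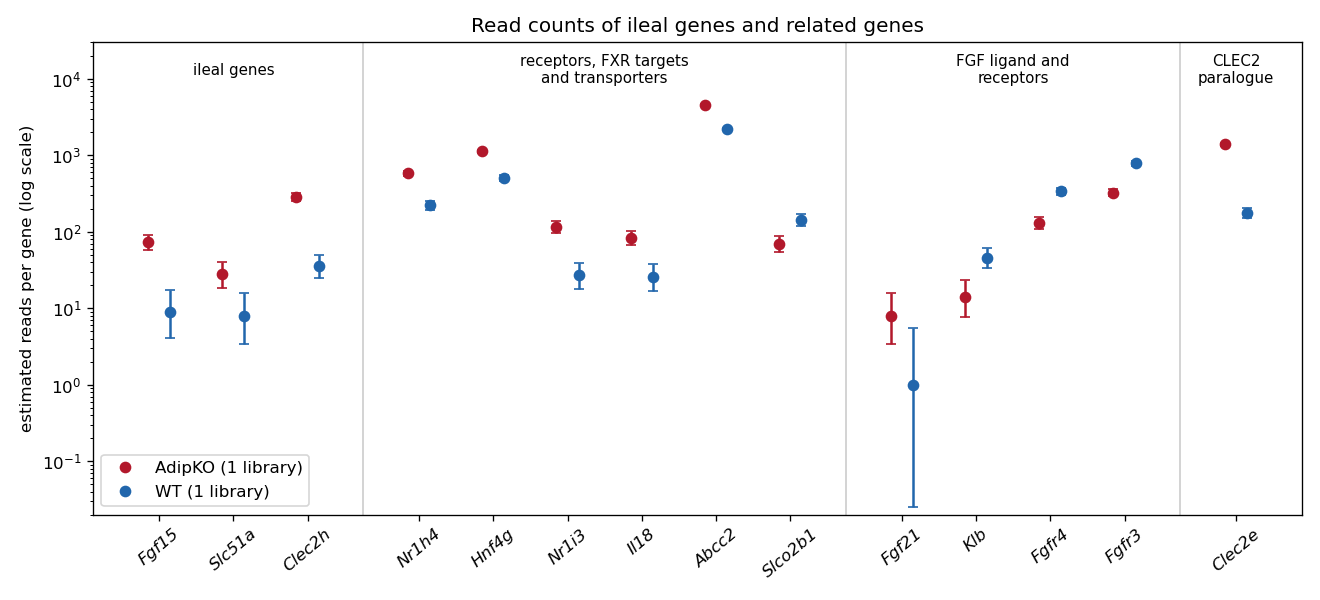
Estimated reads per gene on a log axis in the AdipKO library (red, left of each pair) and the WT library (blue), with exact 95% Poisson intervals. Fgf15, Slc51a and Clec2h, the receptor genes Nr1h4, Hnf4g and Nr1i3 and the lectin gene Clec2e had more reads in AdipKO, while Slco2b1, Klb, Fgfr4 and Fgfr3 had fewer.

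All 3 genes passed the threshold of 2-fold or more with the pseudocount, in a table where 35.3% of listed genes were called higher in the AdipKO library and 62.2% lower. By sign alone, 37.8% of listed genes were higher. At 4-fold or more Fgf15 and Clec2h remained, against 9.94% of listed genes. Clec2h ranked 26 and Fgf15 ranked 30 of 1448 when genes were ordered from the highest log2 ratio down, and Slc51a ranked 215. The median log2 ratio was -1.15 over all listed genes and 1.48 over the 547 genes with a positive ratio. Among whole-count genes whose summed count lay within 2-fold of that of Fgf15, 1 of 375 had a ratio as high. For Clec2h it was 2 of 255, and for Slc51a 48 of 368. Genes with fractional counts were left out of these numbers, and some with like summed counts had higher ratios than Fgf15.

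**Figure D3:**
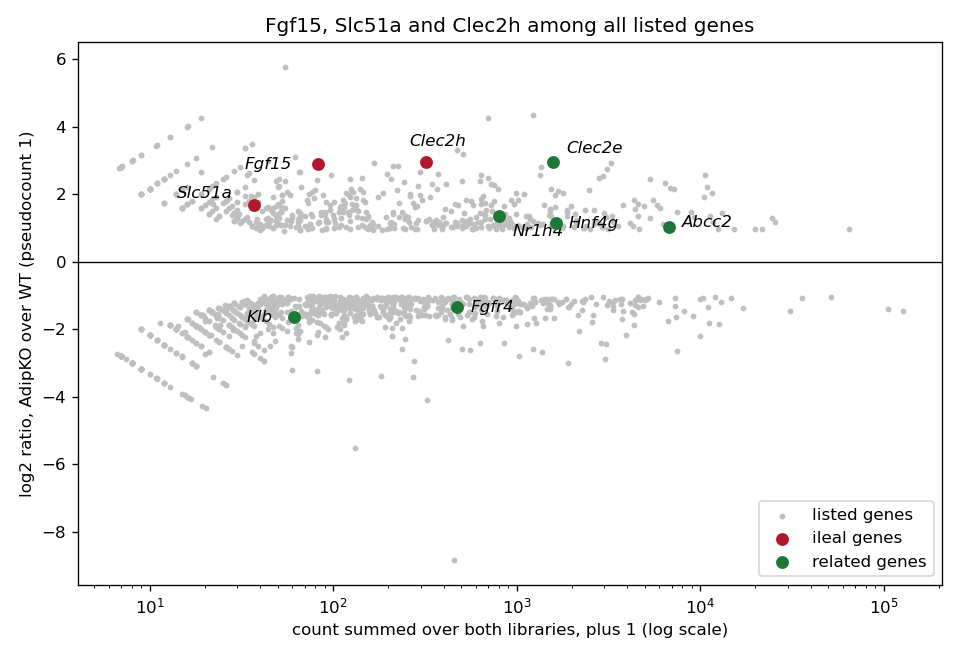
The log2 ratio of AdipKO over WT for all 1448 listed genes (grey) against the count summed over both libraries on a log axis. Fgf15 at 2.89 and Clec2h at 2.95 (red) lie near the top of the band at their counts, Slc51a at 1.69 lies inside it, and related genes are green.

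The 3 folds were also compared with each other as ratios of folds, which do not change with the scaling of the libraries; 8 such pairs were computed. The fold of Fgf15 was 2.30 times that of Slc51a (0.70 to 7.49), and the fold of Clec2h was 2.25 times that of Slc51a (0.82 to 5.57). Both intervals include 1, so the lower fold of Slc51a could not be separated from the others at these counts. The folds of Clec2h and Fgf15 had a ratio of 0.97 (0.39 to 2.18). Per kilobase of the longest protein-coding transcript, the levels in AdipKO were ordered Clec2h at 131 reads (116.6 to 147.7), Fgf15 at 40.3 (31.6 to 50.7) and Slc51a at 10.7 (7.11 to 15.5), with no overlap of neighbours. In WT the order was the same, with Clec2h at 16.7 reads per kilobase (11.7 to 23.1), Fgf15 at 4.97 (2.27 to 9.44) and Slc51a at 3.06 (1.32 to 6.02), where the intervals of Fgf15 and Slc51a overlapped.

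Reads from other genes could enter these counts. The counts of all 3 genes were whole numbers. The strand handling was not given, and the exons of Fgf15 overlap the antisense gene Gm26793, which holds 16.4% of the 100-base words of its longest protein-coding transcript. In the GENCODE transcripts Pcyt1a, on the opposite strand, holds 18.6% of those of Slc51a. In RefSeq these genes lie 0.513 kb apart, and the annotation used for counting was not given. Without strand, reads from these overlaps cannot be told apart, and neither Gm26793 nor Pcyt1a was listed. For Clec2h 4 of 2061 words occur in another gene, its paralogue Clec2i. For words of 31 bases the share was 7.84%, spread over 558 other genes. The transcripts had GC contents of 50.8% for Fgf15, 47.7% for Slc51a and 43.4% for Clec2h. Of the listed genes with a GC content between 47.5% and 52.2%, 37.0% had a positive log2 ratio, and of those at or under 47.5%, 61.1% did. The part of GC content in the counts of the 3 genes was not tested.

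The gene of the bile acid receptor was itself higher in AdipKO organoids. Nr1h4, which encodes FXR, had 580 reads in AdipKO and 224 reads in WT, 2.59-fold higher (2.22 to 3.03). Its fold was smaller than that of Fgf15, by a ratio of folds of 3.13 (1.53 to 7.24), and smaller than that of Clec2h, by 3.04 (2.07 to 4.58). Against Slc51a the ratio was 1.35 (0.59 to 3.48). Of 18 genes in a list of receptors and transcription factors that act on FXR or on its targets, 3 were listed. All 3 were called higher, against 35.3% of all listed genes, with a median log2 ratio of 1.37. Hnf4g, a nuclear receptor of differentiated enterocytes, had 1124 reads in AdipKO and 507 in WT, 2.22-fold higher (1.99 to 2.47). Nr1i3, which encodes the xenobiotic receptor CAR, had 117.24 reads in AdipKO and 27.37 in WT, which were fractional counts, 4.28-fold higher (2.83 to 6.85). Rxra, Hnf4a, Vdr, Gata4, Cdx2 and Malrd1 were among the 15 that were not listed.

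Few other FXR targets were listed. Of 12 target genes, 3 were listed and all 3 were called higher, against 35.3% of all listed genes. The 3 include Fgf15 and Slc51a, and their median log2 ratio of 1.69 is the value of Slc51a itself. The remaining gene was Il18, an epithelial cytokine, with 84 reads in AdipKO organoids and 26 reads in WT organoids, 3.23-fold higher (2.06 to 5.23). Slc51b, the partner subunit of Slc51a, Fabp6, the ileal bile acid binding protein, and Nr0b2, the repressor induced by FXR, were not listed. A gene outside the tables has no value here, so whether these targets followed Fgf15 is not answered by them.

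Transporters of bile acids and related anions went both ways. Of 12 genes, 3 were listed, with 2 called higher and 1 lower, against 35.3% and 62.2% of all listed genes. Abcc2, an apical export pump for conjugated organic anions, had 4550 reads in AdipKO and 2210 in WT, 2.06-fold higher (1.96 to 2.17). The fold of Slc51a was 1.70 times that of Abcc2 (0.75 to 4.32). Slco2b1, an uptake carrier for organic anions, had 69 reads in AdipKO and 143 in WT, 2.07-fold lower (1.54 to 2.80), and it was no longer past the threshold when the listed totals were made equal. Slc10a2, the apical sodium-dependent bile acid transporter of the ileum, was not listed.

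Of 20 FGF ligands, receptors and co-receptors, 5 were listed, with the ligands Fgf15 and Fgf21 called higher and 3 receptor or co-receptor genes lower. This split is close to that of all listed genes, 35.3% higher and 62.2% lower, and is no result about the pathway as a whole. Fgfr4, the main receptor of FGF15, had 132 reads in AdipKO organoids and 339 in WT organoids, 2.57-fold lower (2.09 to 3.16). Klb, which encodes beta-Klotho, had 14 reads in AdipKO and 46 in WT, 3.29-fold lower (1.77 to 6.47). Fgfr3 had 324 reads in AdipKO and 786 in WT, 2.43-fold lower (2.13 to 2.77). The genes of the receptor and co-receptor of FGF15 were lower and Fgf15 was higher, and a link between them was not tested. The other ligand called higher was Fgf21, an endocrine relative of Fgf15, at 8 reads in AdipKO and 1 read in WT, a ratio with an interval from 1.07 to 354.98.

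Clec2h was matched by a paralogue. Of 16 genes of the CLEC2 family and the neighbouring Klrb1 receptors, 2 were listed, Clec2h and Clec2e. Both were called higher, as were 35.3% of all listed genes. Clec2e had 1394 reads in the AdipKO library (1321.8 to 1469.2) and 177 reads in the WT library (151.9 to 205.1), 7.88-fold higher (6.73 to 9.26). The ratio of the folds of Clec2h and Clec2e was 1.002 (0.68 to 1.51). The longest protein-coding transcripts of both genes were identical at 66.6% of aligned positions, below the 95.2% of their upstream windows, and no 100-base word of Clec2e occurred in another gene, so no exact read of that length from Clec2h fits it. Clec2e lies on chromosome 6 from 129091816 to 129100903, 414.4 kb from Clec2h. The 8 protein-coding genes between them, which include Klrb1, Klrb1c, Klrb1b, Clec2i, Clec2g and Clec2f, were not listed.

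Genes next to Fgf15, Slc51a and Clec2h on the chromosome gave no common direction. Of the 10 nearest protein-coding genes around each, 5 on each side, 1 was listed. Near Fgf15 it was Tpcn2, an endolysosomal ion channel gene 280.68 kb away, with 62 reads in AdipKO and 147 in WT, 2.37-fold lower (1.75 to 3.24). The closer neighbours Fgf4, Fgf3 and Ccnd1 were not listed. Near Slc51a it was Tctex1d2, with 295 reads in AdipKO and 144 in WT, 2.05-fold higher (1.67 to 2.52). Near Clec2h it was A2ml1, with 21 reads in AdipKO and 5 in WT, 4.20-fold higher (1.54 to 14.3).

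Other markers of distal enterocytes were higher too. Of 45 genes in a list of such markers, 9 were listed. All 9 were called higher in the AdipKO library, against 35.3% of all listed genes, with a median log2 ratio of 2.38. Without Fgf15, Slc51a and Clec2h the count was 6 of 6 with a median of 1.91. Enpep, a brush border aminopeptidase, had 258 reads in AdipKO and 40 in WT, 6.45-fold higher (4.61 to 9.24). Vnn1, a pantetheinase, had 591 reads in AdipKO and 106 in WT, 5.58-fold higher (4.53 to 6.92). Both encode enzymes at the cell surface and had folds near those of Fgf15 and Clec2h, whereas the most counted genes of the list had lower folds. Abcb1a, a drug efflux pump, had 9606.09 reads in AdipKO and 3545.42 in WT, 2.71-fold higher (2.61 to 2.82), in fractional counts. The transcript 2200002D01Rik had 960 reads in AdipKO and 437 in WT, 2.20-fold higher (1.96 to 2.47). Log2 ratios of the 9 genes lay between 1.13 and 2.95, with Clec2h and Fgf15 at the top.

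Markers of proximal enterocytes were also mostly higher, so the direction was not that of the distal list alone. Of 45 genes in the proximal list, 11 were listed, with 9 called higher, 2 lower and a median log2 ratio of 1.36. Over all listed genes, 35.3% were called higher and 62.2% lower. Gsta1, a glutathione transferase, had 5588.27 reads in AdipKO and 1239.27 in WT, 4.51-fold higher (4.24 to 4.80), in fractional counts. Ces2e, a carboxylesterase, had 9354 reads in AdipKO and 2274 in WT, 4.11-fold higher (3.93 to 4.31). Gstm1 had 6655 reads in AdipKO and 2642 in WT, 2.52-fold higher (2.41 to 2.64), and Mogat2, an enzyme of fat absorption, had 542 in AdipKO and 191 in WT, 2.84-fold higher (2.40 to 3.36). The exceptions were Lct, which encodes lactase and had 8 reads in AdipKO and 35 in WT, 4.38-fold lower (1.99 to 10.9), and the duodenal iron reductase gene Cybrd1.

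**Figure D4:**
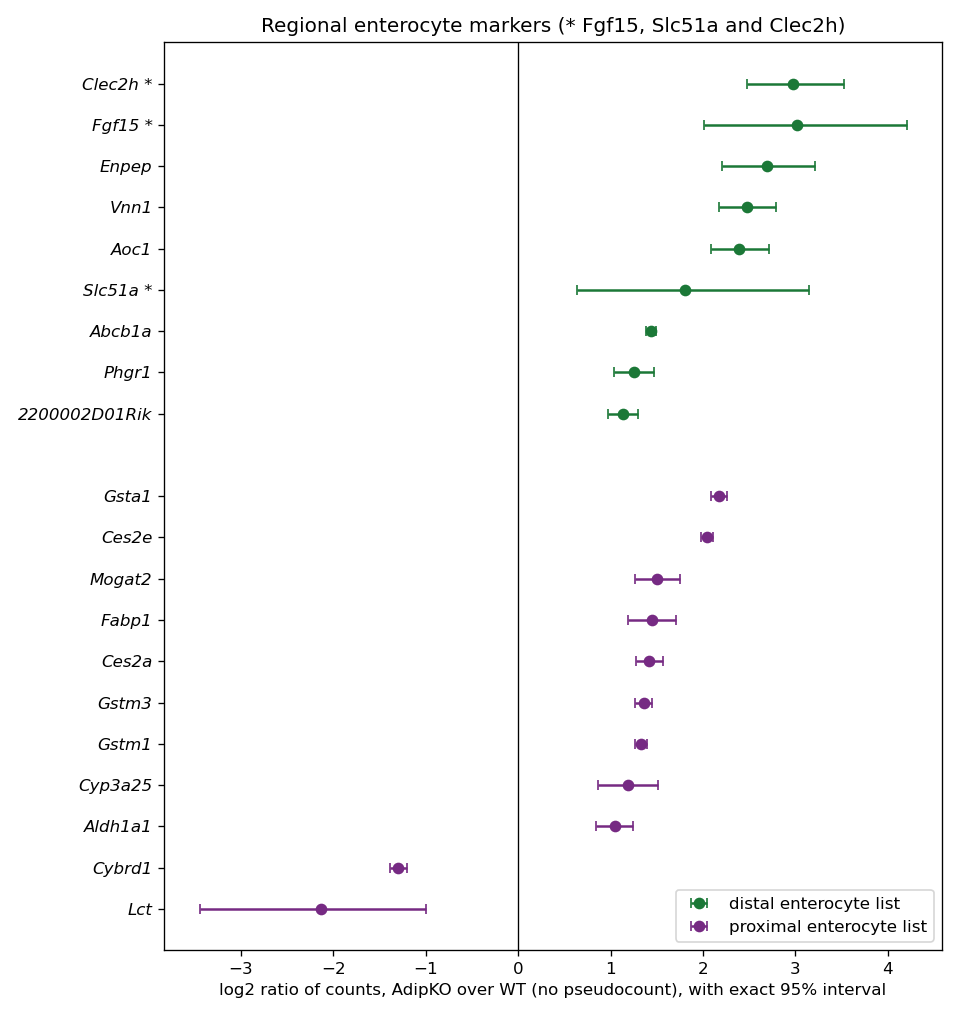
Log2 ratio of the counts, AdipKO over WT and without a pseudocount, with exact 95% intervals, for the listed genes of the distal (green) and proximal (purple) enterocyte lists. All 9 distal genes lie to the right of 0, as do 9 of the 11 proximal genes, and Lct and Cybrd1 lie to the left.

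Markers of cell types went in different directions, in a table where 35.3% of listed genes were called higher and 62.2% lower. Of 10 absorptive enterocyte markers 4 were listed, with 3 higher and 1 lower. Their counts summed to 5163 in AdipKO and 1621 in WT, of which Sis gave 4435 and 1377. The 5 listed of 6 enteroendocrine markers, the 3 of 3 stem cell markers and the 2 of 4 Paneth cell markers were all lower. Enteroendocrine counts summed to 4255 in AdipKO against 10146 in WT. For stem cells the sums were 37384 in AdipKO against 101179 in WT, of which Olfm4 gave 34083 and 92810. For Paneth cells they were 18515 in AdipKO against 38876 in WT, of which Lyz1 gave 16698 and 34709. The 4 goblet cell markers (Muc2, Tff3, Clca1 and Fcgbp) and the 3 tuft cell markers (Dclk1, Trpm5 and Pou2f3) of these lists were not listed in the tables, and other genes of those cells were not looked at. Enpep, Fabp1 and Lct stand in both an absorptive and a regional list. Of 8 colonocyte markers 2 were listed, Slc26a3 with 578 reads in AdipKO and 246 in WT and Saa3 with 0 in AdipKO and 8 in WT. Outside the epithelium, Itgam was the 1 listed of 5 immune markers (57 reads in AdipKO and 25 in WT) and Vim the 1 listed of 5 fibroblast markers (109 in AdipKO and 322 in WT). The hepatocyte marker Alb, 1 of 3, had 155 reads in AdipKO and 55 in WT. The part of these markers in the counts of Fgf15, Slc51a and Clec2h was not tested.

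The listed genes nearest in log2 ratio were taken among whole-count genes with a summed count within 2-fold. For Fgf15 they were Gm12248, with 39 reads in AdipKO and 4 in WT, and Slc5a8, a monocarboxylate transporter gene, with 56 in AdipKO and 8 in WT, at distances of 0.11 and 0.22 in log2 ratio. For Clec2h they were Ifit1bl2, with 185 reads in AdipKO and 25 in WT, and Slc7a3, a cationic amino acid transporter gene, with 199 in AdipKO and 27 in WT, both at 0.11. For Slc51a they were Sec14l4, with 15 reads in AdipKO and 4 in WT, and Cpne5, with 25 in AdipKO and 7 in WT, both at 0.01, where Ddn, with 38 in AdipKO and 11 in WT, tied with Cpne5. With only 2 libraries such likeness rests on a single ratio per gene.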

How the data were processed

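RNA of 1 AdipKO and 1 WT organoid library was sequenced by BGI on the MGISEQ-2000, and the study's methods name FPKM and fold change. The authors deposited estimated counts of reads per gene, unscaled, and not FPKM. Per the labels the build was mm10. Not given in the sources used here: aligner, counting program, annotation and strand handling. Both tables list the same 1448 genes, and 1239 had whole counts in both libraries. The gap in the ratios means that the tables hold genes selected by fold change, so library totals are unknown and no scaling was applied.

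Log2 ratios of AdipKO over WT used a pseudocount of 1. A gene was called at 2-fold or more with at least 1 count in the higher library. Ratios without a pseudocount were given Clopper-Pearson intervals, counts exact Poisson intervals, and ratios of folds exact conditional intervals (scipy 1.17.1), after rounding. Scripts were tested on simulated data. Gene IDs matched RefSeq (GRCm38.p6, the assembly of mm10) in 1436 of 1448 cases. The RefSeq promoter table held Slc51a and Clec2h. Transcripts were from GENCODE M21 and alignments from Biopython 1.88. Fgf15, Slc51a and Clec2h and all gene lists were chosen with earlier results of these data known. Genes were named by rule: the 3 genes, all listed members of the bile acid, FXR, FGF and CLEC2 lists, the 4 largest ratios and 2 highest counts of each regional list, the 2 nearest ratios and listed neighbours. Cybrd1, Ddn, Slc26a3, Saa3, Fabp1, Itgam, Vim, Alb, Sis, Olfm4 and Lyz1 were named after their values were seen. Lgr5, Tnfrsf19, Mycl and Ascl2 were named because the paper names them. Alternatives covered the pseudocount, scaling, threshold and count minimum. No p-value is given, and nothing is said of genes not listed.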

Additional observations from a re-analysis of the deposited data

How the results depend on the processing

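The log2 ratios of Fgf15, Slc51a and Clec2h stayed inside their counting intervals under pseudocounts of 0.1 and 5, equal listed totals and scaling by the middle of the gap, 12 values in all. Among 206 values computed under alternatives, 20 moved and 0 were reversed. The counts over all listed genes under equal listed totals were not among those 20. They were 547 higher and 660 lower, against 511 higher and 901 lower without scaling. The shares of 35.3% higher and 62.2% lower therefore hold for unscaled counts only. At 4-fold or more, 144 genes were higher and 197 lower over all listed genes. At that threshold 1 of the FXR targets, 0 of the bile acid transporters in either direction, 1 of the receptors and 5 of the distal enterocyte markers were higher, 2 proximal markers were higher and 1 lower, and 0 of the FGF list were lower. Equal listed totals, which shift every log2 ratio by 0.22, left 0 bile acid transporters lower. They moved 8 of the 29 other named genes outside their intervals. A minimum of 10 counts left 1 gene of the FGF list higher, since Fgf21 fell out. Keeping whole counts only, which was chosen after seeing the data, left 2 of the receptors, 8 distal markers and 8 proximal markers higher. No paired analysis was possible because each genotype had 1 library. Of Fgf15, Slc51a and Clec2h, the depth limits Slc51a and Fgf15 most, with 8 and 9 reads in the WT library.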
